A study of Mus musculus with 6 samples.

Results

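Transcripts of 9 genes that mark B cells (Cd79a, Cd79b, Ms4a1 and Cd72), T cells (Cd3d, Cd3e and Cd3g) and natural killer (NK) or other cytotoxic cells (Nkg7 and Gzma) were followed in RNA sequencing libraries of mouse brain endothelial cells. They are 9 of the 23329 gene symbols counted. They were selected on measured values: earlier results of the same contrast, in which Cd79a was lower and Cd72 higher, chose them, so their differences between the groups are given here as a description with no test. The cells came from C57BL/6 mice aged 8 weeks, were sorted with magnetic beads and went into lysis buffer without culture. One group held 3 libraries from mice labelled GLUT1EC-/-, an endothelial-cell-specific knockout of Slc2a1, the gene for the glucose carrier GLUT1, and the other held 3 libraries from WT littermates. Each library has an animal number of its own. The Cre driver and the deleted exons are not given in the sources used here.

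The B cell antigen receptor signals through the paired chains CD79a and CD79b, whose cytoplasmic tails recruit tyrosine kinases. CD20, made from Ms4a1, is a membrane protein of mature B cells, and CD72 is a co-receptor that binds semaphorin 4D and dampens receptor signals through a phosphatase it recruits. The CD3 delta, epsilon and gamma chains carry out the matching signalling task for the T cell receptor, while Nkg7 and granzyme A belong to the granules with which NK cells and cytotoxic T cells kill targets. Few lymphocytes are found in the healthy brain, and those in its vessels can be carried into a preparation of endothelial cells.

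The 9 genes lie on 6 chromosomes. On GRCm38, with GENCODE M21 annotation, Cd79a spans chr7:24897381-24902197 (plus strand, 5 exons in its longest transcript) and Cd72 spans chr4:43446462-43454628 (minus strand, 7 exons). Cd79b lies at chr11:106311341-106314762, Ms4a1 at chr19:11249675-11266241 and Gzma at chr13:113093825-113100981, all on the minus strand, and Nkg7 lies at chr7:43437073-43438249 on the plus strand. The CD3 genes are neighbours, Cd3g at chr9:44969572-44980431, Cd3d at chr9:44981786-44987339 and Cd3e at chr9:44998740-45009627, with Cd3d alone on the plus strand. Exons of Cd72 share 1423 bases, 41.6% of their length, with Tesk1, a coding gene on the other strand. The library kit kept strand, but whether the counting used it is not given in the sources used here, so the Cd72 count is uncertain to that extent. Cd3e shares 135 exon bases (3.31%) with the antisense gene Gm48719. Tesk1 stood at 80.3, 86.2 and 88.3 counts per 1000000 counted reads (CPM) in WT 1 to 3 and at 84.6, 141.9 and 82.7 CPM in GLUT1EC-/- 1 to 3, and its difference did not pass the test (log2 fold change 0.28, adjusted p = 0.596 in edgeR's quasi-likelihood test). Tesk1 was highest in GLUT1EC-/- 2, where Cd72 was lowest among the libraries of that label. The part of Tesk1 reads in the Cd72 count was not tested.

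The sequences upstream of Cd79a, Cd72 and Gzma are shown because Cd79a and Cd72 had the differences largest beside their standard errors, in opposite directions, and Gzma the largest fold change of the 9. RefSeq (GRCm38.p6) gave a promoter window for 7 of the 9 genes, and the bases before the start of transcription were read from it: chr7:24897247-24897380 (plus strand) for Cd79a, chr4:43454629-43454876 (minus) for Cd72 and chr13:113100982-113101231 (minus) for Gzma. Each is written 5′ to 3′ on the strand of its gene, and capitals mark matches to 1 of 5 motifs searched on both strands.
Cd79a: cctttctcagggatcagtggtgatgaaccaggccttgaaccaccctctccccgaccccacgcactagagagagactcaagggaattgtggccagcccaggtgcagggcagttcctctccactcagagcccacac
Cd72: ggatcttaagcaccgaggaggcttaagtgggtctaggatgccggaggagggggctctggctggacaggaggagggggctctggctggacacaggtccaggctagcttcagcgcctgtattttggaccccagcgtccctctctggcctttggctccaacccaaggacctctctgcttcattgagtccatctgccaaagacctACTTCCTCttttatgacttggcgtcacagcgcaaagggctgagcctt
Gzma: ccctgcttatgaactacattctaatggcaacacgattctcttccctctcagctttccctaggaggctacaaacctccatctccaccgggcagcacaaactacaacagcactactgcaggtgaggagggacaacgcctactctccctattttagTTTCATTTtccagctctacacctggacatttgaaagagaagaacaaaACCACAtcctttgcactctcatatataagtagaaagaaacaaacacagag

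The motifs were the octamer ATGCAAAT, GAGGAAGT for PU.1, CCCNNGGG for EBF1, TGTGGT for RUNX factors and AANNGAAA for interferon regulatory factors. In 250-base windows of all 32851 RefSeq starts they matched in 1.6%, 2.44%, 11.8%, 14.0% and 21.3%, respectively. For the genes here, too, the 250 bases before the RefSeq start were searched, and positions are counted from that start. The stretches shown above also stop before the GENCODE start, which leaves 248 bases for Cd72 and 134 for Cd79a. Cd72 held a PU.1 match at bases -49 to -42 from the RefSeq start. Gzma held a RUNX match at -50 to -45 and an interferon regulatory factor match at -97 to -90. Nkg7 held a RUNX match at -83 to -78 and Cd3g an interferon regulatory factor match at -115 to -108. In the windows of Cd79a, Cd3d and Cd3e none of the 5 was found. A match is a run of letters and not a measured binding site. Only the exact letters were searched, with N for any base, so a site that departs from them would be missed. A window without a match may therefore still hold a site.

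Depth ran from 31874662 to 39424384 counts per library, with 16705 to 17257 genes detected. Brain endothelial markers were abundant in every library, 22304 to 27211 CPM summed over 14 genes, and none of the 14 passed the test (0 by edgeR, DESeq2 and limma-voom, with 2 at an unadjusted p under 0.05 in edgeR). Slc2a1 itself did not separate the groups: it stood at 3984, 4479 and 4172 CPM in WT 1 to 3 and at 3735, 5414 and 3893 CPM in GLUT1EC-/- 1 to 3 (log2 fold change 0.05, SE 0.18, adjusted p = 0.921 by edgeR). Counts over a whole gene can miss a deletion of some exons, so this level does not check the labels, and the group is called by its label throughout. GLUT1EC-/- 2 stood apart from its group, with a mean correlation of 0.964 with the other libraries of its group across genes, against 0.972 to 0.989 elsewhere, and a scaling factor of 0.884 against 1.01 to 1.05. Over all 14838 genes tested, 194 (1.31%) passed an adjusted p of 0.05, 128 of them higher (0.863%) and 66 lower (0.445%) under the GLUT1EC-/- label.

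All 9 genes passed the filter on low counts, with at most 273 reads for any of them in a library. Ms4a1 and Gzma reached the filter's minimum count of 10 only in WT libraries. By the same fit, 3 of the 9 passed the threshold, Cd72 higher and Cd79a and Gzma lower, against 1.31% of all genes. The contrast chose the 9 genes, so these calls are not a test of them, and nothing is read from that share. With the number series of the animals (described with the CD3 genes) as a term, or without any 1 WT library, 0 of these 3 passed. Without GLUT1EC-/- 1 only Cd72 did, and Gzma was also lost with sex as a term, library size alone or upper-quartile scaling. The groups did not overlap for 5 of the 9, 4 lower and 1 higher, against 22.9% of all genes tested. The median log2 fold change of the 9 was -0.69, beside 0.01 over all genes. In bulk RNA, fewer cells of a type and less RNA per cell cannot be told apart.

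**Figure D1:**
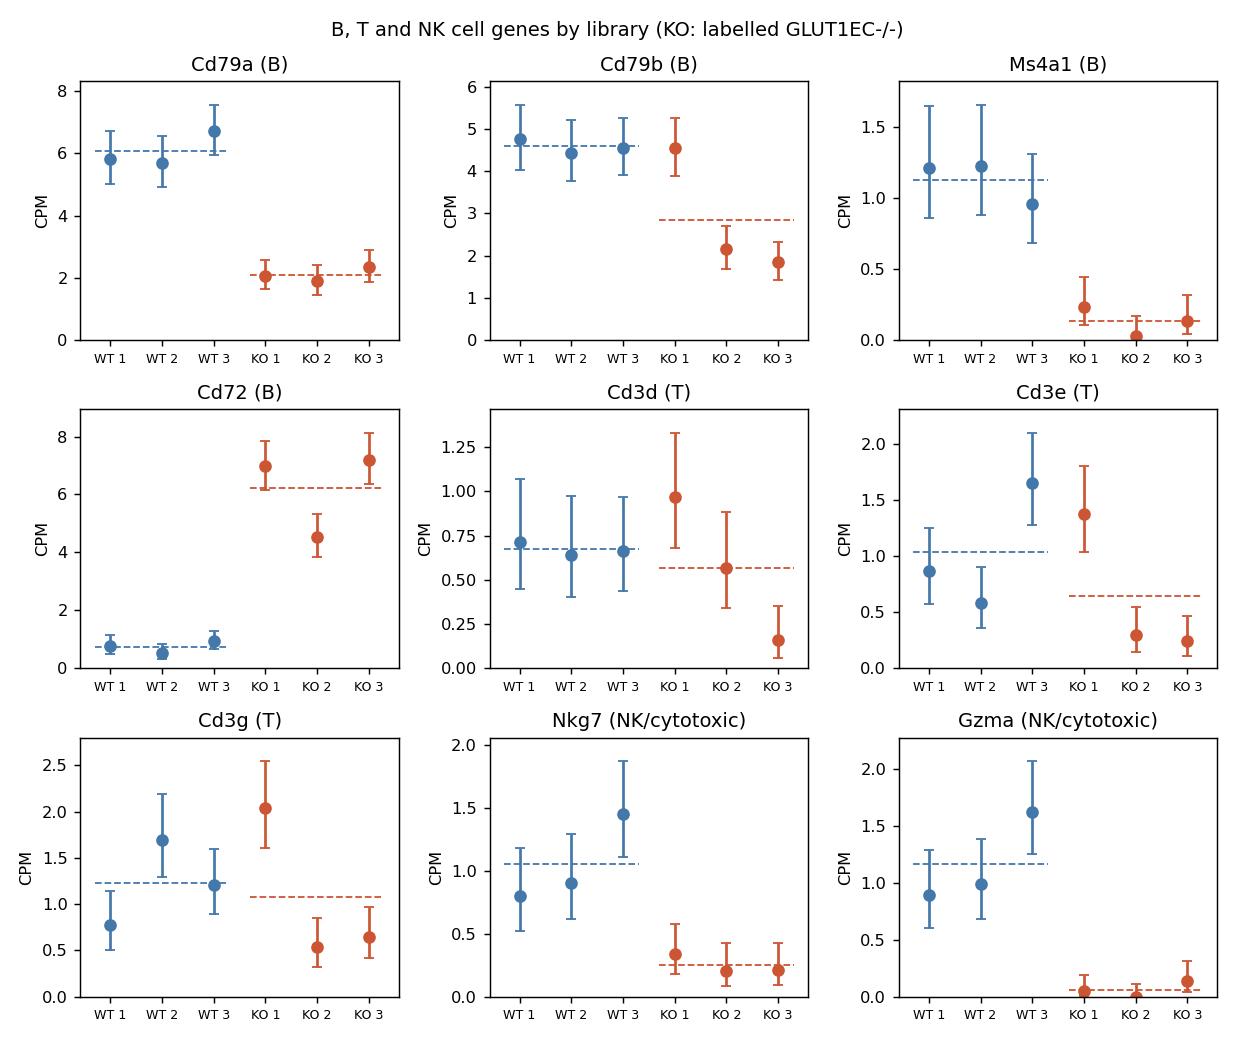
CPM of the 9 genes (vertical axes, linear, from 0) in the 3 WT libraries (blue) and the 3 libraries labelled GLUT1EC-/- (red, KO on the axis); points are libraries, bars are 95% exact Poisson intervals of the count, which cover counting error only, and dashed lines are group means. The 3 points labelled GLUT1EC-/- lie below every WT point for Cd79a, Ms4a1, Nkg7 and Gzma and above every WT point for Cd72, and the groups overlap for Cd79b and the CD3 genes.

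The signalling chains of the B cell receptor were not equally low. Cd79a stood at 5.82, 5.70 and 6.73 CPM in WT 1 to 3 and at 2.06, 1.88 and 2.33 CPM in GLUT1EC-/- 1 to 3. The groups were far apart and tight within, 6.08 ± 0.56 CPM against 2.09 ± 0.22 CPM (SD, n = 3 each), a log2 fold change of -1.54 (SE 0.22). Cd79b, its partner chain, stood at 4.76, 4.44 and 4.56 CPM in WT 1 to 3 and at 4.54, 2.15 and 1.84 CPM in GLUT1EC-/- 1 to 3. Here GLUT1EC-/- 1 sat inside the WT range while the other 2 libraries of its label sat below it, and the log2 fold change was -0.69 (SE 0.36). Without GLUT1EC-/- 1 it was -1.20.

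Measured against each other, the chains kept nearly the same proportion in WT. Cd79b took 45.0%, 43.8% and 40.4% of the reads of the pair in WT 1 to 3. It took 68.8% in GLUT1EC-/- 1 (95% exact binomial interval 62.7% to 74.4%), 53.3% in GLUT1EC-/- 2 and 44.2% in GLUT1EC-/- 3. The share was thus highest in GLUT1EC-/- 1, and in GLUT1EC-/- 3 it was within the counting interval of WT 1 (39.7% to 50.5%). Per kilobase of exon, Cd79a averaged 4.17 CPM and Cd79b 3.21 CPM in WT, against 1.44 and 1.99 CPM in the other group.

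Ms4a1, for CD20, was low everywhere and lowest in the knockout-labelled libraries. Its counts were 39, 42 and 39 reads in WT 1 to 3, or 1.21, 1.23 and 0.961 CPM, and 9, 1 and 5 reads in GLUT1EC-/- 1 to 3, or 0.235, 0.0299 and 0.135 CPM. The groups did not overlap, and the log2 fold change was -3.02 (SE 0.58), moving to -3.69 without GLUT1EC-/- 1 and to -2.59 without GLUT1EC-/- 2. A single read separates this gene from 0 in GLUT1EC-/- 2.

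Cd72 went the other way. It stood at 0.774, 0.526 and 0.936 CPM in WT 1 to 3 (25, 18 and 38 reads) and at 6.97, 4.54 and 7.20 CPM in GLUT1EC-/- 1 to 3 (267, 152 and 266 reads). Every library of the knockout label lay above every WT library, with means of 0.745 ± 0.207 CPM and 6.24 ± 1.47 CPM (SD, n = 3 each) and a log2 fold change of 3.05 (SE 0.33). It ranged from 2.86 to 3.26 as each library was left out in turn, and was 3.23 without GLUT1EC-/- 2.

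In reads of the pair Cd72 and Cd79a, Cd72 held 11.7%, 8.45% and 12.2% in WT 1 to 3. In GLUT1EC-/- 1 to 3 it held 77.2% (exact binomial interval 72.4% to 81.5%), 70.7% (64.1% to 76.7%) and 75.6% (70.7% to 80.0%). Per kilobase of exon the ratio of Cd72 to Cd79a went from 0.0566, 0.0393 and 0.0593 in WT to 1.44, 1.03 and 1.32. By reads, the gene that was the minor of the pair in WT was thus the major one in each library of the other label. Per kilobase, the 2 genes were about level in GLUT1EC-/- 2 (1.03). Against Cd79b, Cd72 held 10.6% to 17.0% of the pair's reads in WT and 60.5% to 79.6% in the other group. Against Ms4a1 it held 30.0% to 49.4% and 96.7% to 99.3%.

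On the log2 scale, with 0.5 CPM added to each level, the ratio of Cd72 to Cd79a averaged -2.41 ± 0.16 in WT and 1.36 ± 0.24 under the GLUT1EC-/- label (SD, n = 3 each), a difference of 3.77. For Cd72 to Cd79b the difference was 3.12, and for Cd72 to Ms4a1 it was 3.80. These ratios do not depend on how the libraries were scaled to each other except through the added 0.5 CPM. The pair was chosen for its difference, so the gap is a description.

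**Figure D2:**
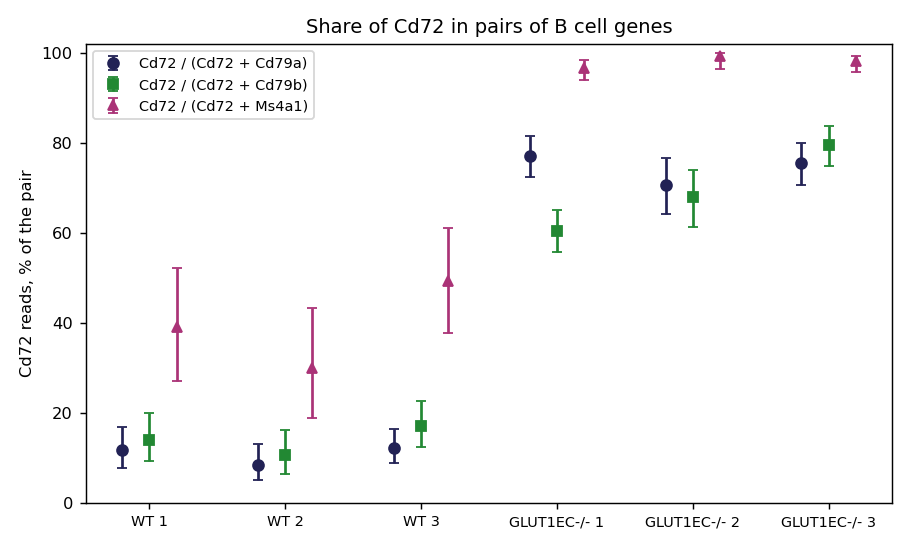
Reads of Cd72 as a percentage (vertical axis) of the reads of Cd72 and a second B cell gene, by library (horizontal axis); circles pair it with Cd79a, squares with Cd79b and triangles with Ms4a1, and bars are 95% exact binomial intervals, which cover counting error only. With Cd79a the share lies at 8.45% to 12.2% in WT and at 70.7% to 77.2% in the libraries labelled GLUT1EC-/-.

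Of the other B cell genes, 17 were counted and 14 tested. By the test 1 was lower and 0 higher, against 0.445% and 0.863% of all genes tested. Of the 14, 10 had a lower and 4 a higher value. Summed over the list, the level was 34.5 to 45.9 CPM in WT and 19.9 to 33.2 CPM in the other group. Their median log2 fold change was -1.34 beside 0.01 over all genes, and 8 of the 14 had groups that did not overlap, all 8 of them lower, against 22.9% of all genes apart in either direction. An unadjusted p under 0.05 was reached by 8, each lower. The called gene was Fcer2a, the low-affinity IgE receptor CD23: 1.02, 0.906 and 1.82 CPM in WT 1 to 3 against 0.209, 0.0598 and 0.0541 CPM in GLUT1EC-/- 1 to 3, log2 fold change -3.48 (SE 0.62), adjusted p = 0.0425 (edgeR). The call was lost when any library but GLUT1EC-/- 2 was left out (adjusted p from 0.0644 to 0.198). Fcer2a had 31 to 74 reads in WT and 2 to 8 in the other group. It reached the filter's minimum count of 10 only in WT, so it entered the test through the group where it was high. Pou2af1, a co-activator of octamer-binding factors, stood at 4.80, 4.24 and 4.78 CPM against 2.01, 0.866 and 2.60 CPM, groups apart but not called (log2 fold change -1.33, adjusted p = 0.160). The receptor Cr2 and the transcription factor Pax5, too low to test, had 2 to 18 reads per library.

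Of the 4 most abundant genes of the list, 3 had groups that overlapped. Cd37, a tetraspanin of leukocytes, stood at 5.88, 7.10 and 9.31 CPM in WT and at 8.80, 5.95 and 12.3 CPM in the other group (log2 fold change 0.28). Blnk, an adaptor below the receptor, had a log2 fold change of 0.54, and Cd22, an inhibitory co-receptor that binds sialic acid, one of -0.09. The groups overlapped for all of these. Cd22 lay at 2.54 to 3.57 CPM in WT and 2.18 to 3.98 CPM in the other group, where Cd72, also an inhibitory co-receptor, had groups apart.

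The list of B cell receptor signalling genes and CD72 partners held 19 genes, all tested, with a median log2 fold change of -0.08. Of these, 1 was higher and 0 lower by the test, against 0.863% and 0.445% of all genes tested. The called gene was Fcgr2b, the inhibitory Fc receptor, at 8.82, 10.1 and 12.02 CPM in WT 1 to 3 and at 21.5, 18.6 and 21.3 CPM in GLUT1EC-/- 1 to 3 (log2 fold change 0.99, SE 0.17, adjusted p = 0.0407 by edgeR). Its groups did not overlap, but the call was lost when any library but GLUT1EC-/- 2 was left out (adjusted p from 0.0597 to 0.258). Inpp5d, the SHIP1 phosphatase, was at 66.6 to 72.2 CPM in WT and 76.6 to 96.3 CPM in the other group (log2 fold change 0.37, adjusted p = 0.257). Plcg2, a phospholipase, had a value on the lower side (-0.54, adjusted p = 0.216), and the adaptor Grb2 (0.04) and the kinase Lyn (-0.16) overlapped between groups. Several of these genes are also expressed outside B cells. Of plasma cell genes, 3 were tested and 0 passed by edgeR (1 had an unadjusted p under 0.05, and DESeq2 called 1). Sdc1, for syndecan-1, lay at 10.9 to 16.3 CPM in WT and 23.9 to 65.0 CPM in the other group, and Prdm1 and Igj overlapped.

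The CD3 genes spread more among the libraries labelled GLUT1EC-/- than the group means differed. Cd3e, the epsilon chain, stood at 0.866, 0.584 and 1.65 CPM in WT 1 to 3 and at 1.38, 0.299 and 0.244 CPM in GLUT1EC-/- 1 to 3, log2 fold change -0.68 (SE 0.71). Cd3g, the gamma chain, stood at 0.774, 1.69 and 1.21 CPM against 2.04, 0.538 and 0.650 CPM, log2 fold change -0.18 (SE 0.57). Cd3d, the delta chain, stood at 0.712, 0.643 and 0.665 CPM against 0.966, 0.568 and 0.162 CPM, log2 fold change -0.25 (SE 0.58). For all 3 chains the groups overlapped, with GLUT1EC-/- 1 above the WT mean and GLUT1EC-/- 2 and 3 below it. Standard errors were as large as the fold changes or larger.

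These fold changes rested on single libraries. Without GLUT1EC-/- 1 they were -1.93 for Cd3e, -1.04 for Cd3g and -0.89 for Cd3d. Cd3g had a value above 0 without WT 2 (0.12), GLUT1EC-/- 2 (0.13) or GLUT1EC-/- 3 (0.08), as Cd3d had without GLUT1EC-/- 3 (0.19). With 6 to 78 reads per library, the counting intervals of single libraries were also wide: the 6 reads of Cd3d in GLUT1EC-/- 3 allow 0.0596 to 0.354 CPM.

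Animal numbers in the labels fall into a 200s series (WT 1, WT 2 and GLUT1EC-/- 1) and a 500s series (WT 3, GLUT1EC-/- 2 and GLUT1EC-/- 3), and the labels do not say what the numbers stand for. Within the 200s each CD3 gene was higher in the library labelled GLUT1EC-/- than in both WT libraries, by 0.32 (Cd3d), 0.63 (Cd3e) and 0.60 (Cd3g) in log2(CPM + 0.5). Within the 500s each was lower in both libraries labelled GLUT1EC-/- than in WT 3, by -0.47, -1.48 and -0.64. Each series holds a group with a single library, and the difference between the series was not tested. Sex overlaps with the series in part. By Xist and Ddx3y every library of the 200s was female, while in the 500s WT 3 and GLUT1EC-/- 3 were male and GLUT1EC-/- 2 female. The same pattern, higher in the 200s and lower in the 500s, was found in 12 of 23 other T cell genes (52.2%), against 6.17% of all genes tested, and in 8 of 10 erythroid and platelet markers (80.0%).

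Where the groups do not overlap, the sign must be the same in both series, so only the sizes are of use. Cd79a differed by -1.29 within the 200s and by -1.48 within the 500s, Cd72 by 2.71 and 2.12. The sizes were -1.22 and -1.33 for Ms4a1, -0.69 and -1.45 for Nkg7 and -1.39 and -1.92 for Gzma. Every level of Ms4a1, Nkg7 and Gzma under the GLUT1EC-/- label lay below the added 0.5 CPM, so their sizes are compressed. The log2 fold changes by edgeR over all libraries were -3.02, -2.03 and -4.13, respectively. Whether the sizes of these genes were alike in the series cannot be read from the values given. Cd79b was level in the 200s (-0.02) and lower in the 500s (-1.02).

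**Figure D3:**
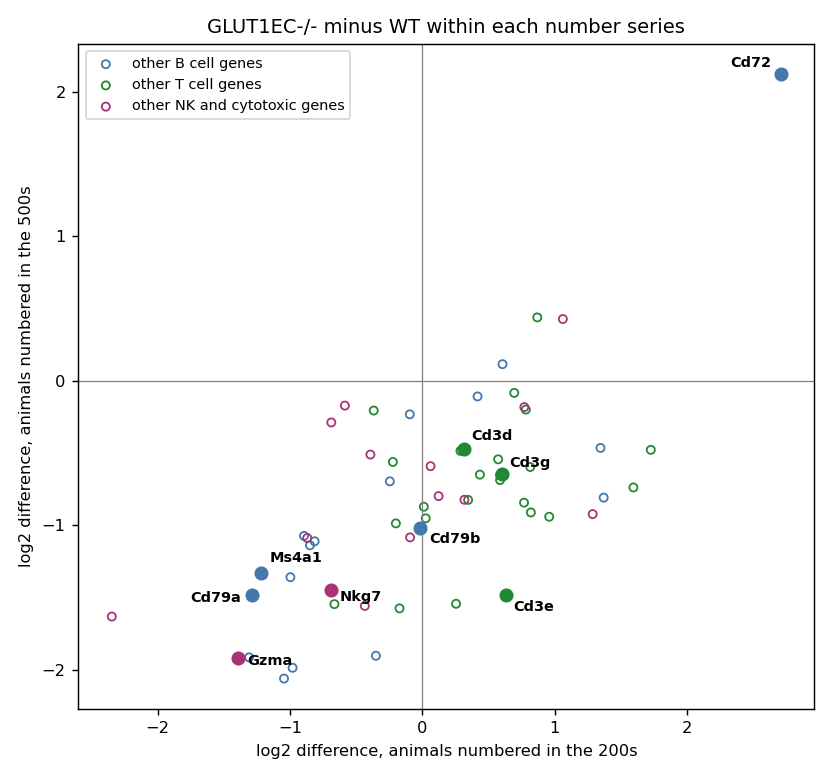
Difference in log2(CPM + 0.5) between GLUT1EC-/- and WT libraries within the animals numbered in the 200s (horizontal axis, 1 against 2 libraries) and in the 500s (vertical axis, 2 against 1); filled points are the 9 genes and open points the tested genes of the other B (blue), T (green) and NK or cytotoxic (purple) lists. Cd72 lies farthest to the upper right and Cd79a, Ms4a1, Nkg7 and Gzma lie at the lower left. The CD3 genes lie at the lower right. Differences of genes at low CPM are compressed by the added 0.5.

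Of the other T cell genes, 23 were tested and 0 passed in either direction by edgeR (4 had an unadjusted p under 0.05, 1 higher and 3 lower, and DESeq2 called 2). Their median log2 fold change was -0.15, and their summed level was 202 to 226 CPM in WT and 172 to 219 CPM in the other group. A large part of that sum was Tcf7, the most abundant, a transcription factor also found outside T cells. Tcf7 stood at 141, 141 and 148 CPM in WT 1 to 3 against 109, 150 and 109 CPM in GLUT1EC-/- 1 to 3. Zap70, the kinase that binds phosphorylated CD3 chains, had groups apart, 18.3 to 25.8 CPM against 29.8 to 41.3 CPM (log2 fold change 0.71, adjusted p = 0.122). Cd4, the co-receptor of helper T cells, overlapped between groups (-0.02), at 8.41 CPM in GLUT1EC-/- 1 and 4.47 CPM in GLUT1EC-/- 3.

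Both genes of cytotoxic granules were low in all 3 libraries labelled GLUT1EC-/-. Nkg7, a granule membrane protein, stood at 0.804, 0.906 and 1.45 CPM in WT 1 to 3 (26, 31 and 59 reads) and at 0.339, 0.209 and 0.217 CPM in GLUT1EC-/- 1 to 3 (13, 7 and 8 reads). Its groups did not overlap, and the log2 fold change was -2.03 (SE 0.45). Gzma, for granzyme A, stood at 0.897, 0.993 and 1.63 CPM in WT (29, 34 and 66 reads) and at 0.0522, 0 and 0.135 CPM in the other group (2, 0 and 5 reads). The count of 0 in GLUT1EC-/- 2 allows up to 0.0896 CPM at the limit of 3 reads, or 0.11 CPM at the upper end of the 95% exact Poisson interval drawn in the plot of the 9 genes. The log2 fold change was -4.13 (SE 0.74), moving to -5.25 without GLUT1EC-/- 3 and to -3.62 without GLUT1EC-/- 2.

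In WT the pair was evenly balanced. Nkg7 took 47.3%, 47.7% and 47.2% of the reads of Nkg7 and Gzma in WT 1 to 3. It took 86.7% in GLUT1EC-/- 1 (13 of 15 reads, exact interval 59.5% to 98.3%), 100% in GLUT1EC-/- 2 (7 reads, 59.0% to 100%) and 61.5% in GLUT1EC-/- 3 (31.6% to 86.1%). The interval of GLUT1EC-/- 1 met those of WT 1 (33.7% to 61.2%) and WT 2 (35.1% to 60.5%) but not that of WT 3 (38.2% to 56.3%), and that of GLUT1EC-/- 3 covered the WT shares. These intervals cover counting error and not the spread between animals. Per kilobase of exon, Nkg7 averaged 1.15 and Gzma 1.17 CPM in WT, against 0.279 and 0.0622 CPM under the other label. GLUT1EC-/- 1, the library with the highest Cd3d and Cd3g, had 2 reads of Gzma.

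Among other NK and cytotoxic genes 26 were counted and 13 tested. By the test 2 were lower and 0 higher, against 0.445% and 0.863% of all genes tested. The list's median log2 fold change was -0.57. Its summed level was 31.8 to 36.7 CPM in WT and 19.4 to 41.0 CPM in the other group. The NK cell receptors Ncr1 and Klrb1c were too low to test, with 0 to 13 reads per library. S1pr5, a receptor with which NK cells leave tissues, stood at 2.44, 4.94 and 1.95 CPM in WT 1 to 3 and at 0.287, 0.209 and 0.379 CPM in GLUT1EC-/- 1 to 3 (log2 fold change -3.39, SE 0.48, adjusted p = 0.0220 by edgeR). Prf1, for perforin, stood at 0.588, 0.526 and 0.591 CPM against 0.0783, 0 and 0.0271 CPM (log2 fold change -3.84, SE 0.72, adjusted p = 0.0499). Neither gene's groups overlapped. Without WT 1, WT 2, WT 3 or GLUT1EC-/- 1, neither passed (adjusted p from 0.0759 to 0.262), and without GLUT1EC-/- 3 Prf1 did not (0.0866). Prf1 had 18 to 24 reads in WT and 0 to 3 in the other group. It reached the filter's minimum count of 10 only in WT, so it entered the test through the group where it was high. Gzmm (4.90 to 6.93 against 3.92 to 4.48 CPM) and Ccl5 (2.25 to 4.41 against 0.514 to 2.24 CPM) had groups apart on the lower side without a call. Ctsw, for cathepsin W, lay on the higher side (2.51 to 5.12 against 6.06 to 8.20 CPM, adjusted p = 0.221), and Il2rb ran from 2.57 to 19.0 CPM within the libraries labelled GLUT1EC-/-. Among the WT libraries, S1pr5 was highest in WT 2 and lowest in WT 3, as were the monocyte markers Cd300e and Emr4. Nkg7 and Gzma were instead highest in WT 3. Which cells the S1pr5 reads came from was not tested.

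Of 16 pan-leukocyte genes, 1 was lower by the test and 0 higher, against 0.445% and 0.863% of all genes tested. The list's median log2 fold change was -0.34. Itgal, the alpha chain of the integrin LFA-1, stood at 55.7, 89.1 and 26.7 CPM in WT 1 to 3 and at 10.03, 4.12 and 3.68 CPM in GLUT1EC-/- 1 to 3 (log2 fold change -3.26, SE 0.53, adjusted p = 0.0316 by edgeR). Its call was lost without any 1 library except GLUT1EC-/- 3 (adjusted p from 0.0515 to 0.180). Laptm5 (0.29), Lcp1 (-0.23), Arhgdib (-0.13) and Itgb2, the partner chain of Itgal (-0.80), all overlapped between groups. With the number series as a term, Fcer2a, Fcgr2b, S1pr5 and Prf1 did not pass (adjusted p from 0.103 to 0.162), nor with sex as a term (0.0516 to 0.0934), while Itgal did (0.0314 and 0.0378).

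**Figure D4:**
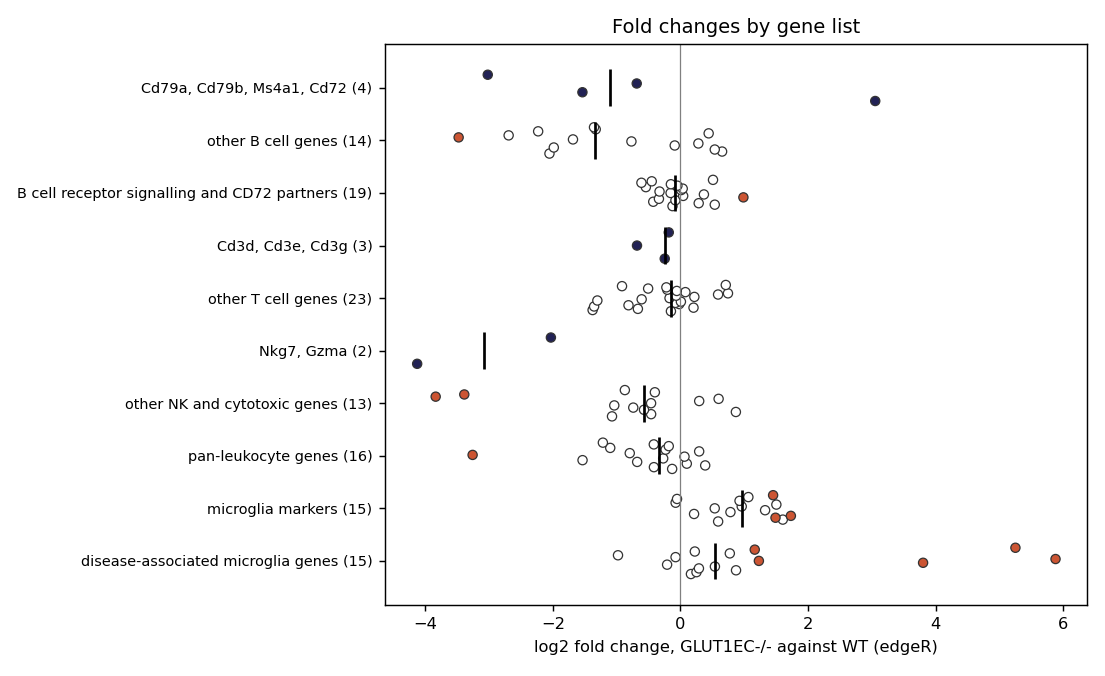
Log2 fold change between the libraries labelled GLUT1EC-/- and WT (horizontal axis, edgeR) of each tested gene, by list (vertical axis, number of genes in brackets); dark points are the 9 genes, red points are other genes past an adjusted p of 0.05, open points did not pass and black lines are list medians. The median lies at -1.34 for other B cell genes, -0.15 for other T cell genes, -0.57 for other NK and cytotoxic genes and 0.96 for microglia markers.

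Markers of other cell types moved beside these genes. Of 15 microglia markers 3 were higher and 0 lower by the test, against 0.863% of all genes higher, their median log2 fold change was 0.96, and their summed level was 562 to 663 CPM in WT and 823 to 1848 CPM in the other group. The called genes were C1qc (1.73), Trem2 (1.45) and C1qb (1.49), with complement or lipid-sensing roles. None of the 3 passed without any 1 WT library or with the number series as a term, and 1 microglia marker did with library size alone. Of 15 genes of disease-associated microglia 5 were higher and 0 lower, against 0.863% and 0.445% of all genes tested. The list's median was 0.54, with sums of 1963 to 2360 against 2857 to 3971 CPM. The called genes included Gpnmb (5.88), Spp1 (5.25) and Cst7 (3.81). Of this list 2 passed with the number series as a term, and 0, 0 and 1 without WT 1, 2 and 3. In reads of Cd72 and Cst7, Cd72 held 75.8%, 56.2% and 56.7% in the WT libraries, against 48.8%, 53.3% and 46.4% under the GLUT1EC-/- label. In reads of Cd72 and Gpnmb it held 81.8% to 92.6% in WT and 40.6% to 51.3% in the other group. The share of Cd72 in reads of Cd72 and C1qc was 0.82% to 1.35% in WT and 2.54% to 3.66% in the other group. The part of these cells in the level of Cd72 was not tested.

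Monocyte and macrophage markers split, with 1 higher (Ace) and 3 lower of 15, against 0.863% and 0.445% of all genes tested. Those lower included Cd300e (-5.69) and Emr4 (-5.49). Without any 1 WT library, 0 of the 15 markers passed. Their summed level was 581 to 757 CPM in WT and 1000 to 1066 CPM in the other group, most of it from Ace at 343 to 405 and 751 to 851 CPM. The sum thus describes Ace more than the list, whose median log2 fold change was 0.05, with 8 values higher and 7 lower. Which cells the Ace reads came from was not tested. Of the glial and neuronal markers, 1 of 12 was higher, Gfap of astrocytes (2.97), and 1 lower, against 0.863% and 0.445% of all genes. Both calls were lost without any 1 WT library. No gene of the erythroid and platelet list was called by edgeR (0 of 10, 1 at an unadjusted p under 0.05, and 0 by DESeq2), but their summed level was 823 to 1113 CPM in WT, 1155 CPM in GLUT1EC-/- 1, 125 CPM in GLUT1EC-/- 2 and 384 CPM in GLUT1EC-/- 3. These markers were thus lowest in GLUT1EC-/- 2 and 3, the libraries also lowest in Cd3e, and highest in GLUT1EC-/- 1. Cd3d and Cd3g were highest in GLUT1EC-/- 1 too, but Cd3e was highest in WT 3 (1.65 CPM against 1.38 CPM). Cd3d and Cd3e were lowest in GLUT1EC-/- 3 and Cd3g in GLUT1EC-/- 2. Cd79a, Ms4a1, Nkg7 and Gzma lay below every WT library in GLUT1EC-/- 1 as well. The part of blood in the lymphocyte genes was not tested. Dendritic, neutrophil, and pericyte and smooth muscle lists had 0 calls of 8, 5 and 10 by edgeR, with 1 gene each at an unadjusted p under 0.05, and DESeq2 called 1 dendritic cell gene and 0 of the others.

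Profiles over the 6 libraries were compared by the root mean square difference of centred log2(CPM + 0.5), so that 0 means the same shape, among genes averaging 1 CPM or more. The added 0.5 CPM flattens the profiles of low genes, and these are descriptions over 6 libraries that share their groups. Among the 4 nearest to Cd79a were Tle2 (0.127), Pbld1 (0.136) and Mamdc2 (0.145), beside a median of 0.712 over 13240 genes. Nearest to Cd72 were Disp2 (0.139), Kif15 (0.249), A2m (0.295) and Cst7 (0.303), beside a median of 1.25. Disp2 stood at 0.712, 0.701 and 0.961 CPM in WT 1 to 3 and at 8.59, 4.30 and 7.26 CPM in GLUT1EC-/- 1 to 3, with GLUT1EC-/- 2 lowest of its label for both genes. Nearest to Cd3e were Fbxo44 (0.153), H2-DMb2 (0.181), Ly6c2 (0.216) and H2-Ab1 (0.235), and nearest to Nkg7 were Pbld1 (0.166), Clec2d (0.172), Sox10 (0.191) and Prr22 (0.199).

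Among the 9 genes themselves, the nearest profiles were those of Cd79a and Gzma (0.163), Cd79a and Ms4a1 (0.191) and Cd79a and Nkg7 (0.225), all of which join genes with the 3 libraries labelled GLUT1EC-/- below WT. Cd79b lay nearer to Cd3d (0.290) and Cd3e (0.315) than to Cd79a (0.497). Cd72 was at least 1.39 from each of the others and farthest from Gzma (2.0).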

How the data were processed

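RNA was measured in 3 WT libraries and 3 labelled GLUT1EC-/-, grouped by the genotype label. Each deposited file gives raw read counts by gene symbol, which the authors made with STAR on GRCm38 and featureCounts, per the submitters' processing notes; versions, annotation and strand setting are not given in the sources used here. Levels are CPM (counts per 1000000) scaled by TMM factors. The main test was edgeR 4.0.16 (R 4.3.3), quasi-likelihood, genotype only, filterByExpr (minimum count 10, total 15), robust dispersion and Benjamini-Hochberg adjustment over 14838 genes. Standard errors are the log2 fold change over the square root of F. With 3 animals per group the biological coefficient of variation was 23.2%, and intervals cover counting error only, since the labels name no molecular identifiers and PCR copies would count as separate reads. Coordinates and exon overlaps came from GENCODE M21 (GRCm38), promoter sequence from RefSeq (GRCm38.p6).

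The 9 genes, the lists and the tests were chosen with earlier results of these data known. Named genes are the 9, Slc2a1, called and most abundant genes of each list, and the nearest profiles, and a few genes that this rule names are not reported here. The lists also named immunoglobulin and T cell receptor constant genes, but no value of a constant gene is given here. Not every listed symbol was among those counted. Counted were 17 of 22 symbols for other B cell genes, 5 of 10 for plasma cell genes and 26 of 29 for other T cell genes. Alternatives were other scalings and filters, DESeq2 1.42.0, voom in limma 3.58.1, number series or sex (Xist and Ddx3y: WT 3 and GLUT1EC-/- 3 male) as a term, other pseudocounts and each library left out. Scripts were tested on simulated counts.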

Additional observations from a re-analysis of the deposited data

Results flagged for a closer look

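The CD3 genes differed between groups in opposite directions within the animals numbered in the 200s and in the 500s, every library of a series moving the same way. In log2(CPM + 0.5), Cd3d differed by 0.317 in the 200s and -0.47 in the 500s, Cd3e by 0.63 and -1.48, and Cd3g by 0.601 and -0.644. The summed level of the other T cell genes differed by 0.0934 and -0.242, and that of the other NK and cytotoxic genes by 0.325 and -0.672. Single abundant genes weigh on both sums. Tcf7, the most abundant of the T cell list, differed by -0.37 and -0.21. Of the 23 tested genes of that list, 12 were higher in the 200s and lower in the 500s. Il2rb, the most abundant of the NK and cytotoxic list, differed by 1.29 and -0.92. Of the 13 tested genes of that list, 3 had the pattern, 6 were lower in both series and 1 was higher in both. Over all genes tested, 6.17% had the pattern, 17.8% were lower in both series and 18.4% were higher in both. With 1 against 2 libraries in each series, the difference between the series was not tested. Series and sex overlap in part, since every library of the 200s was female and WT 3, the only WT library of the 500s, was male.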

How the results depend on the processing

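No paired analysis was possible because the labels give the groups no shared replicate numbers: numbers 1 to 3 follow accession order and only name libraries. The number series, which pairs no single animals and which the labels do not define, was fitted as a term instead. The 194 calls over all genes became 879 with DESeq2, 14 with the number series as a term, 113 with sex as a term, and 0 to 862 with each library left out (leaving out WT 1, 2 and 3 gave 0, 1 and 5, and leaving out GLUT1EC-/- 1, 2 and 3 gave 32, 862 and 283). The single call among other B cell genes became 0 with library size alone, with at least 1 CPM in 3 libraries, with the number series and with sex, 3 with no filter, 7 with DESeq2, 2 with limma-voom and 0 to 6 with each library left out. The 2 calls among other NK and cytotoxic genes became 1 with library size alone, upper-quartile scaling, no filter or the 1 CPM filter. They became 0 with the number series or sex, and 0 to 2 with libraries left out. Fcer2a and Prf1 did not pass the 1 CPM filter, so under it they were not tested. Fcgr2b, the call among B cell receptor signalling genes, was lost (0 calls) with library size alone, upper-quartile scaling, the number series or sex, and 0 to 2 genes passed with libraries left out. The pan-leukocyte call became 3 with DESeq2 and 0 to 1 with libraries left out. Plasma cell genes, with 0 calls, gave 1 with DESeq2 and 0 to 1 with libraries left out, and other T cell genes, also with 0, gave 2 and 0 to 2. Medians of log2 fold change with each library left out ran from -1.363 to -1.0 for the B cell genes among the 9, from -1.039 to 0.078 for the T cell genes and from -3.586 to -2.769 for Nkg7 and Gzma. The difference of 3.77 in the log2 ratio of Cd72 to Cd79a was 4.41 with 0.1 CPM added and 2.55 with 2 CPM added. The cause of these shifts was not tested. Under every other scaling, filter and tool run, the fold changes of Cd79a, Cd72, Ms4a1, Nkg7 and Gzma kept their sign wherever the gene was tested, and the median of all genes stayed between -0.0348 and 0.0166. Counts of 0 to 78 reads limit Ms4a1, Gzma, Nkg7 and the CD3 genes.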
